A study of Drosophila melanogaster with 9 samples.

Results

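The Cpr genes encode cuticle proteins that carry the Rebers and Riddiford (RR) consensus, a stretch that binds chitin, and form the largest family of structural cuticle proteins in *Drosophila melanogaster*. The members are the rows of the deposited table whose FlyBase symbol is Cpr followed by a digit. There were 70 such genes among the 13947 genes of the table. The gene named Cpr alone encodes the cytochrome P450 reductase, an unrelated enzyme, and was left out. The digits and letters after Cpr give the cytological position of the gene, so members with the same number lie near each other.

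Counts came from nuclear RNA-seq of 3 shSet2 libraries, replicates 1, 2 and 3. The flies were males aged 10 days and collected at zeitgeber time 6, in hours after lights on. All carried *Rh1-Gal4*, which is active in outer photoreceptors from late pupal development, together with UAS-GFP-Msp300KASH, which tags the nuclear membrane with GFP, and 1 shRNA line against Set2, the enzyme that trimethylates histone H3 on lysine 36. Nuclei carrying GFP were pulled from frozen heads with an antibody, and libraries were made from 10 ng of RNA. The series calls the replicates biological, without saying whether they came from separate cultures of flies. No library of shControl photoreceptors entered these values, so they describe shSet2 photoreceptors alone and give no effect of Set2.

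Cuticle proteins are secreted by epidermal cells and, in the tracheae, by tracheal cells. In the eye, the corneal lens above each ommatidium is itself a cuticle. It is secreted in the pupa by the cone cells and primary pigment cells, not by the photoreceptors beneath it. Cpr72Ec and Cpr66D are known protein components of this lens, together with Crys (drosocrystallin, which also carries the RR consensus) and retinin. The photoreceptor markers listed for these libraries were ninaE, ninaC, trp, trpl, norpA, inaD, inaC, Arr1, Arr2 and chp. All were counted in every library, with counts-per-million (CPM) sums of 66256, 69041 and 67024 in replicates 1, 2 and 3. The library totals were 3657491, 3794547 and 4960498 counts. Set2 itself, the target of the shRNA, had 313, 370 and 369 counts.

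Few reads of these nuclei fell on the Cpr family, 287 counts on 70 members over the 3 libraries. Of the members, 36 (51.4%) had no count in any library, against 21.6% of all genes in the table. Only 4 members (5.71%), Cpr72Ec, Cpr73D, Cpr64Ad and Cpr65Au, had at least 10 counts in every library, against 41.6% of all genes. A count in every library was found for 10 members (14.3%), against 62.2% of all genes. The median summed count was 0 for the members and 21 for all genes. A count of 0 allows up to 3 counts, a floor of 0.820, 0.791 and 0.605 CPM in replicates 1, 2 and 3 and of 0.242 CPM over the pooled total, and a level below it was not detectable at this depth. In bulk samples, few cells that express a gene and little of its RNA in each cell cannot be told apart.

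**Figure D1:**
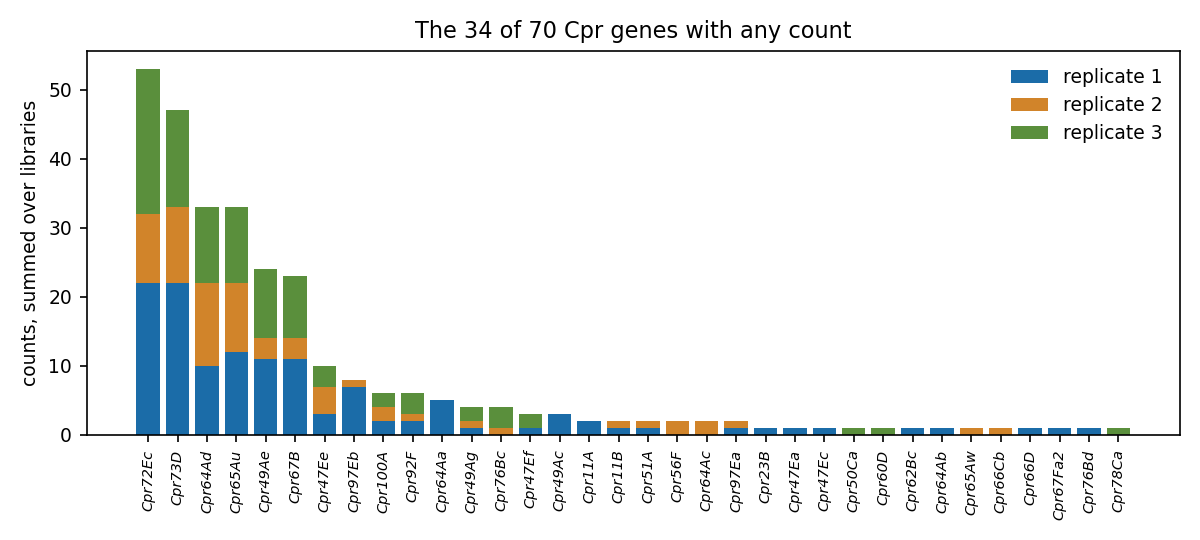
Counts of each Cpr gene with any count, stacked by replicate (y axis, counts summed over the 3 shSet2 libraries), ordered from the highest to the lowest member. The 6 members on the left hold 213 of the 287 counts, and 13 members on the right have a summed count of 1.

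The 6 members (8.57%) that reached 10 counts in at least 1 library were Cpr72Ec, Cpr73D, Cpr64Ad, Cpr65Au, Cpr49Ae and Cpr67B. The share of all genes that did so was not computed. They took 213 counts, or 74.2% of those of the family, and the other 64 members shared 74 counts.

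Cpr72Ec (FBgn0036619), a lens protein, had the most counts of the family when the 3 libraries were summed. It lies on chromosome arm 3L from 16365894 to 16367340 in the Release 6 plus ISO1 MT annotation. Replicates 1, 2 and 3 held 22, 10 and 21 of its counts, on average 4.29 ± 1.66 CPM (SD, n = 3). The 95% Wilson intervals on the unscaled totals ran from 3.97 to 9.11 CPM for the first of these libraries, from 1.43 to 4.85 CPM for the next and from 2.77 to 6.47 CPM for replicate 3. Replicate 2 was the lowest, and each interval overlaps the others. By summed counts it was at rank 5365 of the 13947 genes of the table. Its first place rests on the sum. It tied with Cpr73D at 22 counts in replicate 1 and was below Cpr64Ad, with 12 counts, and Cpr73D, with 11, in replicate 2. Without replicate 3 the mean was 4.31 CPM for Cpr72Ec and 4.45 CPM for Cpr73D. Its share of all Cpr counts was 18.2% ± 3.85 (SD, n = 3).

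Cpr66D, the other member named here as a lens protein, had 1 count in replicate 1 and 0 in replicates 2 and 3, under the floor in each library. In sum, Cpr72Ec had 53 counts and Cpr66D 1. The lens protein genes outside the family were counted at low levels. For retinin there were 27, 14 and 37 counts in replicates 1, 2 and 3, or 6.17 ± 2.14 CPM (SD, n = 3). Crys had 9 counts in each library, or 2.21 ± 0.34 CPM, just under the minimum of 10. The label of lens proteins was used here for Cpr72Ec and Cpr66D, and of these only Cpr72Ec was above the floor. Whether other members are lens proteins was not tested.

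Cpr73D (FBgn0036680) had 22, 11 and 14 counts in replicates 1, 2 and 3, or 3.90 ± 1.78 CPM (SD, n = 3). It spans 18590 bases of 3L, from 16939100 to 16957689. Its end overlaps Ogdh, which encodes a subunit of the oxoglutarate dehydrogenase complex, by 2868 bases. Ogdh had 2374, 1984 and 2731 counts, in a row of its own, and the ratio of the Cpr73D counts to these was 0.927%, 0.554% and 0.513%. An odorant-binding protein gene that lies within its span, Obp73a, had no count in any library.

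Cpr64Ad (FBgn0035513) had 10, 12 and 11 counts in replicates 1, 2 and 3, or 2.70 ± 0.47 CPM. It lies on 3L from 4215379 to 4216414, wholly within the span of CG43367, which runs from 4193993 to 4224003. CG43367 was strongly counted, with 1436, 1452 and 1873 counts in a row of its own. The ratio of the Cpr64Ad counts to these was 0.696%, 0.826% and 0.587%. Cpr64Aa, Cpr64Ab and Cpr64Ac lie within the same gene and had 5, 1 and 2 counts in sum. The counting of reads in overlapping genes and on the opposite strand is not given in the sources used here, so the counts of Cpr73D and of the Cpr64A genes are uncertain. The part of the overlapping genes in them was not tested.

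Cpr65Au (FBgn0042119) was the steadiest of these members together with Cpr64Ad. Its counts were 12, 10 and 11 in replicates 1, 2 and 3, or 2.71 ± 0.51 CPM. It lies on 3L from 6131242 to 6132109. An antisense RNA gene, asRNA:CR46005, overlaps it by 833 bases and has no row in the table under that name, and without strand the reads of both cannot be told apart. The larval cuticle protein genes next to it on either side, Lcp65Ag3 and Lcp65Ag2, had no count in any library. They are named as copies of each other. How reads that match more than 1 copy were counted is not given in the sources used here, so these values are uncertain.

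Cpr49Ae (FBgn0033728) and Cpr67B (FBgn0035985) reached 10 counts in some libraries only. Cpr49Ae had 11, 3 and 10 counts in replicates 1, 2 and 3, or 1.93 ± 1.10 CPM. It lies on 2R from 12402216 to 12405108 and overlaps no other gene. Cpr67B had 11, 3 and 9 counts, or 1.87 ± 1.09 CPM. It lies on 3L from 9404797 to 9406174, with only 4 bases between its end and CG4022, which had 179, 186 and 263 counts. Both members were at the floor in replicate 2.

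**Figure D2:**
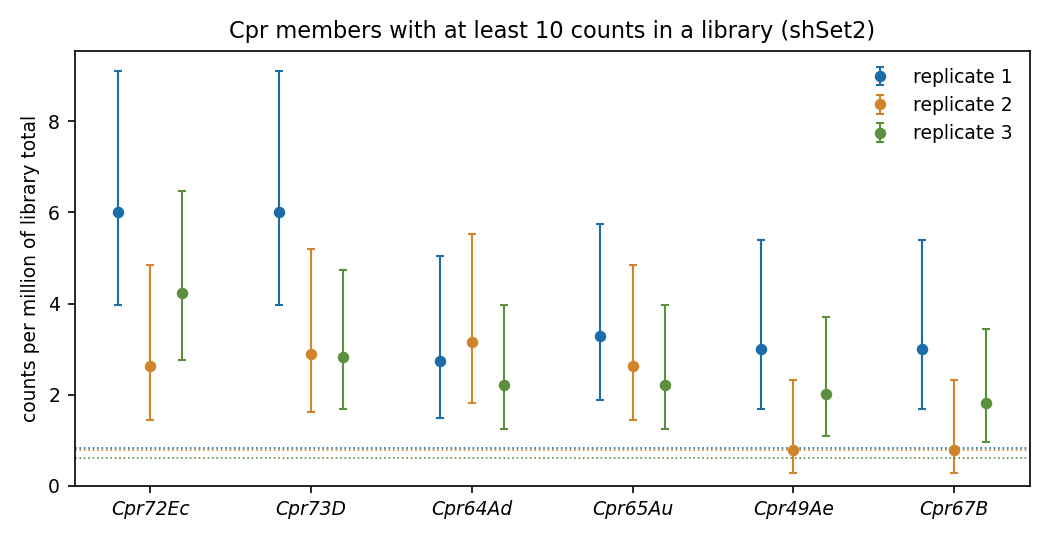
CPM on unscaled library totals (y axis) for the 6 Cpr members with at least 10 counts in a library, 1 point per shSet2 library with its 95% Wilson interval. Dotted lines mark the floor of 3 counts in each library. The intervals of the 3 libraries overlap for each member, and Cpr49Ae and Cpr67B sit on the floor in replicate 2.

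Genes of different length were compared per kilobase of gene span, introns included, because exon lengths were not used here. On this scale Cpr65Au had the highest mean at 3.12 ± 0.59 CPM per kilobase (SD, n = 3), followed by Cpr72Ec at 2.96 ± 1.15, Cpr64Ad at 2.61 ± 0.46, Cpr67B at 1.35 ± 0.79, Cpr49Ae at 0.668 ± 0.38 and Cpr73D at 0.21 ± 0.10. The mean of Cpr72Ec differed from those of Cpr65Au and Cpr64Ad by less than the SD of any of these genes. The means of Cpr65Au and Cpr64Ad differed by less than the SD of Cpr65Au but by more than that of Cpr64Ad. Cpr72Ec was above Cpr65Au in replicates 1 and 3 (4.12 against 3.75 and 2.94 against 2.57 CPM per kilobase) and below it in replicate 2 (1.83 against 3.05). Cpr73D moved from the second place by counts to the last of the 6 per kilobase of its long span.

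Another 28 members (40%) had from 1 to 10 counts in sum. Neither this class nor that of a summed count of 1 was counted over all genes. The highest of these 28 members was Cpr47Ee, with 3, 4 and 3 counts in replicates 1, 2 and 3, at or just above the floor in each library. Cpr97Eb had 7, 1 and 0 counts. Cpr92F had 2, 1 and 3 counts and Cpr100A had 2 in each library. A summed count of 1 was found for 13 members, Cpr66D among them. The pairs Cpr65Ax1 and Cpr65Ax2, and Cpr67Fa1 and Cpr67Fa2, are named as copies of each other. How reads that match more than 1 copy were counted is not given in the sources used here, so their values (1 count for Cpr67Fa2 and 0 for the other 3) are uncertain.

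Most Cpr genes lie in runs. With members no more than 10 kb apart joined, 49 of the 70 genes fell into 13 runs and 21 lay alone. Where a run had more than a few counts, 1 member held most of them. In the run from Cpr72Ea to Cpr72Ec, all 53 counts were on Cpr72Ec, although Cpr72Eb ends 186 bases before it. In the run of 7 genes from Cpr65Au to Cpr65Az, 33 of 34 counts were on Cpr65Au. In the run of 4 from Cpr64Aa to Cpr64Ad, 33 of 41 were on Cpr64Ad, and in the run from Cpr49Ae to Cpr49Ah, 24 of 28 were on Cpr49Ae. No count was found on the 3 genes from Cpr65Ea to Cpr65Ec. By chromosome arm, the 4 members with at least 10 counts in every library were all on 3L, which holds 35 of the 70 members. The 21 members on 2R had 52 counts, the 5 on 2L had 1, the 5 on 3R had 22 and the 4 on X had 4.

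**Figure D3:**
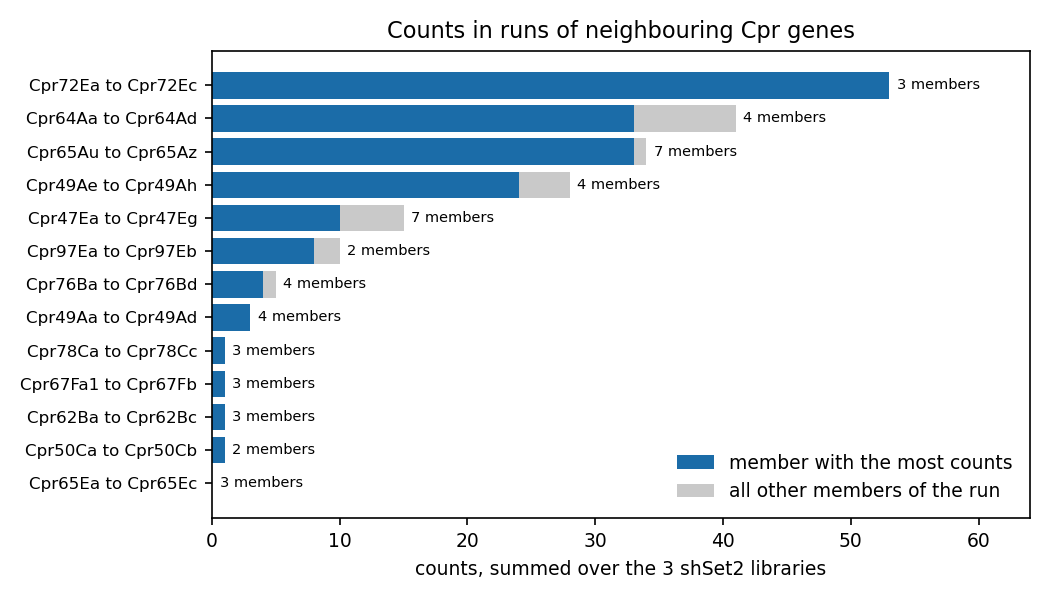
Counts summed over the 3 shSet2 libraries (x axis) for each of the 13 runs of neighbouring Cpr genes, with the member that has the most counts in blue and all others in grey. In each of the 4 runs with the most counts, 1 member holds most of them, and the run from Cpr65Ea to Cpr65Ec has no count.

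Some Cpr genes share their position with another gene. Of the 70 members, 13 (18.6%) overlapped another RefSeq gene, against 47.3% of the 13860 genes with a position. A set of 6 members overlapped a gene with at least 100 counts in every library. These were Cpr64Aa to Cpr64Ad in CG43367, Cpr73D at Ogdh and Cpr11B within hwt. Together they took 90 counts, or 31.4% of those of the family. All 6 had a count, against 28 of the 64 other members (43.8%). At least 10 counts in every library were reached by 2 of the 6 and by 2 of the 64. The share of all genes that overlap such a gene was not computed, and the difference was not tested. Of the 4 members with at least 10 counts in every library, Cpr73D and Cpr64Ad were in this set and Cpr72Ec and Cpr65Au were not. Cpr72Ec overlaps no other gene. Cpr65Au overlaps the antisense RNA gene asRNA:CR46005, whose counts are not known, so its place outside the set is uncertain. The summed Cpr level of 23.6 ± 8.88 CPM (SD, n = 3) was 12.9 ± 6.03 CPM without the 13 members that overlap any gene, a choice made after the values were seen.

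The libraries differed in the Cpr total. It came to 125, 68 and 94 counts in replicates 1, 2 and 3. On the unscaled totals this was 34.2 CPM (95% Wilson interval 28.7 to 40.7) for replicate 1, 17.9 CPM (14.1 to 22.7) for replicate 2 and 18.9 CPM (15.5 to 23.2) for replicate 3. The interval of replicate 1 does not overlap those of the others, which overlap each other. These intervals cover counting error only. Replicate 1 was thus 1.91-fold above replicate 2. It also had the most members with a count, 26 of 70 (37.1%), against 19 (27.1%) in replicate 2 and 15 (21.4%) in replicate 3, although its total was the smallest. Over the whole table replicate 1 was first too, with a count for 72.3% of all genes, against 68.2% in replicate 2 and 68.7% in replicate 3. Of the 18 members (25.7%, against 9.71% of all genes) with counts in exactly 1 library, 11 (61.1%) had them in replicate 1. Of all genes counted in exactly 1 library, 53.1% were counted in replicate 1 too, so the share among the Cpr genes was near that of the table.

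Markers of other cell types also differed between the libraries. The lens and cone cell list (Crys, retinin, ct, sv and pros) summed to 297, 208 and 178 CPM in replicates 1, 2 and 3. All 5 genes were above 0 in each library, and pros, which R7 photoreceptors also express, made up most of this sum. The epidermis list (grh, vvl, kkv, knk, serp and verm) stood at 43.9, 33.9 and 22.1 CPM, with kkv, the chitin synthase of the epidermis, at 2, 0 and 0 counts. The trachea list (trh, btl and Gasp) was at 5.96, 3.44 and 2.84 CPM, the pigment cell list at 177, 162 and 151 CPM over the 3 of its 4 genes found, and the muscle list at 55.5, 14.8 and 20.7 CPM. Each of these sums was highest in replicate 1, as were those of the glia, fat body and hemocyte lists and the Cpr total. Most of the fat body sum came from 1 gene, apolpp, at 776, 618 and 543 CPM in replicates 1, 2 and 3. In the same list Lsp2 went the other way, at 10.0, 25.4 and 44.8 CPM. Within the lists, retinin, grh, rst, repo, Lsp2, Yp1 and Hml were highest in another replicate. Their part in the Cpr counts was not tested.

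The median spread between libraries was larger for the counted members than for the table, but not every member had it. The median SD of log2(CPM + 1) was 0.33 over the 4 members with at least 10 counts in every library and 0.18 over all 5802 such genes. By member the SD was 0.47 for Cpr72Ec and 0.49 for Cpr73D. It was 0.19 for Cpr64Ad and 0.20 for Cpr65Au, near the median of all genes. All 4 members had few counts, where counting error alone is large, and the difference was not tested. Without replicate 1 the medians were 0.19 and 0.14.

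Few genes of other cuticle families were counted either. A list of 28 other RR cuticle genes held the larval Lcp and pupal Pcp genes, Ccp84A, Acp65Aa, Edg78E, Edg84A, Crys and resilin. Of these, 19 were without a count in any library, against 21.6% of all genes, and 1 reached 10 counts in every library. The 1 gene was Lcp3 (FBgn0002534), a larval cuticle protein gene, with 35, 44 and 37 counts in replicates 1, 2 and 3, or 9.54 ± 2.07 CPM (SD, n = 3). It has a close copy in Lcp4, with 12, 6 and 9 counts, and how reads shared by both were counted is not given in the sources used here. The same holds for Lcp65Ab1 and Lcp65Ab2, and for Lcp65Ag1, Lcp65Ag2 and Lcp65Ag3, named as copies and without a count. On the scale of gene span, Lcp3 was at 12.1 ± 2.64 CPM per kilobase, above the mean of each Cpr member, and its range did not overlap that of Cpr65Au. None of the 23 Tweedle genes, a second family of cuticle proteins, had at least 10 counts in every library. The highest of them, TwdlG, had 5, 11 and 10 counts. Of 14 genes for chitin synthesis and assembly, 4 (28.6%) were counted in every library at that minimum, a share also below that of all genes: mmy, which makes the sugar nucleotide used for chitin and for glycosylation, knk, which organises chitin at the cell surface, and the chitinase-like Idgf4 and Idgf6. The highest of them by summed counts was Idgf6, with 72, 50 and 124 counts. This place rests on replicate 3. The gene mmy, with 76, 71 and 95 counts, was above it in replicates 1 and 2 and in mean CPM (19.5 against 19.3). The share of all genes at that minimum was 41.6%.

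**Figure D4:**
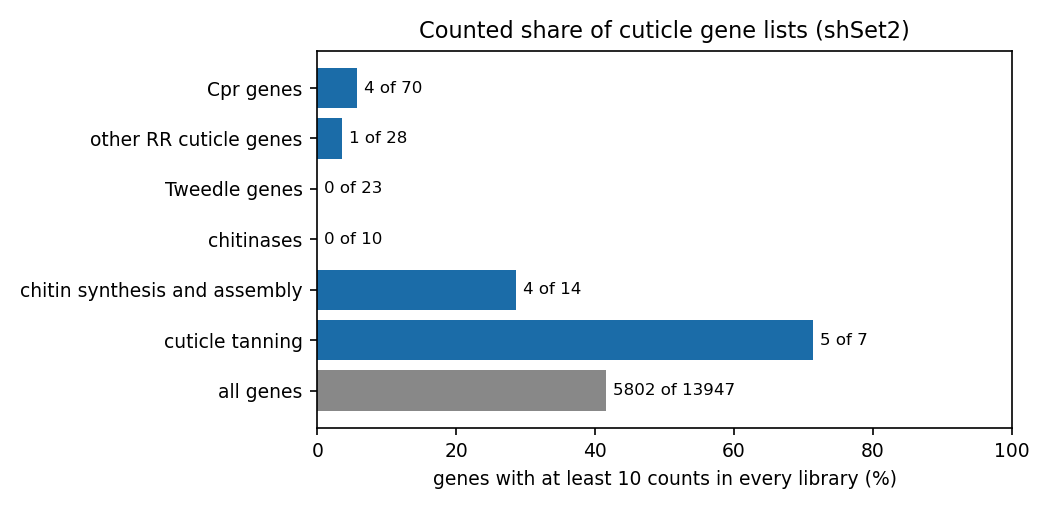
Share of genes with at least 10 counts in every shSet2 library (x axis, percent) for the Cpr genes, other cuticle gene lists and all genes of the table, with the number of genes beside each bar. The Cpr (4 of 70), other RR (1 of 28), Tweedle (0 of 23), chitinase (0 of 10) and chitin synthesis and assembly (4 of 14) lists lie below the 41.6% of all genes, and the tanning list (5 of 7) lies above.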

How the data were processed

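Nuclear RNA-seq counts of 3 shSet2 photoreceptor libraries were analysed, and the 6 ATAC-seq libraries of the series were not analysed here. The authors deposited whole-number counts per gene without normalization. The submitters' processing notes name Trimmomatic, Bowtie2, STAR, SAMtools, deepTools and DESeq2 and the builds dm6 and BDGP6. The counting tool, its strand setting and its treatment of shared reads are not given in the sources used here. The deposited table held 1 blank row, which was left out, and 0 columns of other samples. Symbols were matched for 13884 of 13947 identifiers, and all 70 members were found in the RefSeq gene table (Release 6 plus ISO1 MT), which gave positions and spans. No protein or promoter sequences were used here.

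CPM were computed on totals scaled by TMM (edgeR 4.0.16, R 4.3.3), with factors from genes with at least 10 counts in every library, and with DESeq2 1.42.0 size factors as an alternative. Wilson intervals (95%) used unscaled totals (scipy 1.17.1). Counts carry no molecular identifiers used here, so the intervals, like the floor of 3 counts, reflect counting error alone. Replicate pairs differed by more than counting noise over 5802 genes (chi-square per degree of freedom 5.42 to 12.5), so each counted as 1 sample. With 1 group, no test between conditions was made. The scaling was tested on simulated counts.

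Members and lists were chosen with earlier results of these data known. Genes named were the members with at least 10 counts in any library, Cpr72Ec, Cpr66D, Crys, retinin and the leading gene of each list. Others (among them Cpr47Ee, Cpr97Eb, Cpr92F, Cpr100A, Lcp4, knk, mmy and Idgf4) and all overlapping or neighbouring genes were chosen after their values were seen. Dat, aaNAT and hbs were not matched in the table.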

Additional observations from a re-analysis of the deposited data

How the results depend on the processing

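No paired analysis was possible because only 1 group, the shSet2 RNA-seq libraries, has counts here. The 4 members with at least 10 counts in every library became 10 with a minimum of 1 count, 0 with a minimum of 20, and 7 with at least 10 counts in sum. The number was 4 with a minimum of 5 counts or of 1 CPM, 5 with the other RR genes added, and 4 to 5 with a replicate left out. Members with no count numbered 39 to 47 with a replicate left out, against 36. Of all 13947 genes, 62.2% had a count in every library. The minimum of 10 counts was met by 5901 to 6083 genes with a replicate left out, against 5802. The other settings were not counted over all genes, so their shifts cannot be set against the table. The summed level was 12.9 CPM without the members that overlap another gene, against 23.6, and from 18.4 to 26.5 CPM with a replicate left out. The share of Cpr72Ec was 16.2% to 19.97% with a replicate left out and 19.99% per kilobase of gene span, an alternative added after seeing the data. On that scale the mean share of Cpr65Au was 21.6%, but it was above Cpr72Ec in replicate 2 only (24.8% against 14.9%) and below it in replicate 1 (18.4% against 20.3%) and replicate 3 (21.7% against 24.8%). The median SD of log2(CPM + 1) was 0.00 with no count minimum, since most members have no count or few, and 0.19 to 0.37 with a replicate left out. For the 6 leading members, 12 levels recomputed with DESeq2 size factors or unscaled totals moved by less than 1 SD. The 18 levels with a replicate left out did too. They could hardly do otherwise, because that SD comes from the same 3 libraries, so they do not test how stable the levels are. The share per coding kilobase was not run, because no coding lengths were used here. With at most 22 counts per member and library, depth limits every value.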

Other observations

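Genes that act on the cuticle after its proteins are secreted were counted unevenly. Of the 10 chitinase genes, 0 reached 10 counts in every library. The highest by counts, Cht6, had 12, 4 and 2 counts in replicates 1, 2 and 3. Of the 7 tanning genes found, 5 reached that minimum. The enzyme gene t (tan), which also recycles histamine in photoreceptors, had 1261, 1261 and 1721 counts, or 341 ± 7.59 CPM (SD, n = 3). The other 4 were Ddc and ple, which make dopamine, e (ebony), which also acts in glia, and stw (straw), a laccase. Their counts were 41, 39 and 35 for Ddc, 21, 15 and 22 for ple, 31, 19 and 23 for e, and 15, 19 and 22 for stw. The gene y (yellow), a pigment gene of the epidermis, had 5, 0 and 0 counts. The chitin deacetylase gene verm was at 9.48, 4.23 and 1.62 CPM, highest in replicate 1, and obst-E at 1.08, 4.23 and 1.01 CPM, highest in replicate 2.

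The marker lists of other head cells summed to 148, 121 and 105 CPM for glia, 786, 644 and 588 CPM for fat body and 40.1, 33.6 and 35.9 CPM for hemocytes in replicates 1, 2 and 3. Most of the fat body sum came from apolpp. Fbp1 and Act88F, of the fat body and muscle lists, had no count in any library.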
